A study of Mus musculus with 12 samples.

Results

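Replication-dependent histone genes, whose expression is coupled to DNA synthesis, were taken as all rows of the deposited expression table whose name starts with Hist1h, Hist2h, Hist3h or Hist4h. That rule, which uses names and no measured value, found 68 of the 23406 rows. By name, 6 belong to the linker histone H1, 18 to H2A, 19 to H2B, 12 to H3 and 13 to H4. The H2B rows include Hist3h2bb-ps, whose name marks a pseudogene. Levels are in CPM, read counts scaled to library size by the authors, and a mean of at least 0.5 CPM over all libraries was needed for a test. This left 52 tested members, namely 6 H1, 10 H2A, 13 H2B, 11 H3 and 12 H4 genes.

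Total RNA was sequenced from mammospheres, the spheres that mammary cells form in floating culture, at passage 2. The mice were C57BL/6J, either wild type (WT) or p66-/- (KO), which lack the p66Shc form of the adaptor protein made from Shc1. Both genotypes were studied at 2 months and at 12 months, with 3 libraries in each of the 4 groups, named below as young (2 months) or aged (12 months) WT or KO and by replicate number. The series design speaks of 3 young and 3 aged mice, but no label ties a library to an animal or culture, so p-values measure the spread between these libraries, which may be technical.

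Core histones H2A, H2B, H3 and H4 form the protein spool around which DNA is wound, and H1 binds the DNA between spools. Cells that copy their genome make large amounts of these proteins during S phase, from intronless genes gathered in clusters. Unlike other messenger RNAs, most of these transcripts carry no poly(A) tail and end in a short RNA hairpin, which the stem-loop binding protein Slbp holds during processing, export and translation. Cells that stop dividing make some members as polyadenylated RNA instead, and replacement histones from other genes are made throughout the cell cycle.

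The members lay in few places on the mouse genome (GRCm38, which is mm10). Of the Hist1 rows, 23 lay on chromosome 13 between 21715762 and 22043610 and 31 between 23531043 and 23934851, with the 10 Hist2 rows on chromosome 3, the 3 Hist3 rows on chromosome 11 and Hist4h4 on chromosome 6. In the GENCODE vM21 annotation the longest transcript had a single exon for 63 of 68 members.

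The hairpin is shown here because it is the feature that sets these transcripts apart, and because its letters differ between the classes. The coding strand was searched for a left arm GGNNC, a loop with its flanks TTNTNA and a right arm GNNCC, joined without gaps. N stands for any base. The search matched 46 of 68 members, in any annotated transcript, and 83 of 21810 other protein-coding genes (0.381%). Of the other genes only the longest protein-coding transcript was searched, so the searches were unlike. On the opposite strand 0.358% of the other genes matched. Bases past an annotated end were not searched, and some members without a match had short transcripts, such as Hist1h4k (312 bases). A missing match therefore does not show a missing hairpin. In the sites below, read from GENCODE vM21 transcripts 5′ to 3′ as DNA, capitals mark the stem-loop.
Hist1h1d: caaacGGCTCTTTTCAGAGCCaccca
Hist2h3c1: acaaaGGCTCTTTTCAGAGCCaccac
Hist1h2bb: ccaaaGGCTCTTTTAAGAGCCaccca
Hist1h4c: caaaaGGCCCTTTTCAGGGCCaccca
Hist1h4a: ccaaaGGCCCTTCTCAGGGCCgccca
Hist1h4b: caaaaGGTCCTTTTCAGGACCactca
The sites lie at chr13:23555782-23555807 (plus strand), chr3:96247322-96247347 (plus), chr13:23747198-23747223 (plus), chr13:23698084-23698109 (minus), chr13:23760795-23760820 (minus) and chr13:23757361-23757386 (plus). The left arm read GGCTC in 34 members, none of them H4. It read GGCCC in 10 and GGTCC in 2 members, and all of these were H4 genes.

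Promoters were compared because the members moved together. The RefSeq promoter table (GRCm38.p6, 250 bases before to 50 after the start) held 61 of the 68 members. CCAAT, searched on both strands, was present in 49 of 49 H1, H2A, H2B and H3 promoters and in 3 of 12 H4 promoters, against 37.4% of 32851 promoters in the table. TATAAA was present in 35 of 61 members and 13.6% of all promoters. ATTTGCAT, an octamer known from H2B promoters, was found in 7 of 17 H2A and 6 of 16 H2B promoters, in no H1, H3 or H4 promoter, and in 1.74% of all. Promoter windows of neighbouring H2A and H2B genes can overlap, and Hist1h2ae and Hist1h2bg hold the same octamer site. The H2A and H2B counts are therefore not independent. The 150 bases before the start of 1 H2B and 1 H4 gene are printed 5′ to 3′ on the gene's strand, with each match in capitals.
Hist1h2bb: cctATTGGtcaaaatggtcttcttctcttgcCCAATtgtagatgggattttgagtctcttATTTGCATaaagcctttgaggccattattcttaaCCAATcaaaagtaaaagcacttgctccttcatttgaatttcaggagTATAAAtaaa
Hist1h4k: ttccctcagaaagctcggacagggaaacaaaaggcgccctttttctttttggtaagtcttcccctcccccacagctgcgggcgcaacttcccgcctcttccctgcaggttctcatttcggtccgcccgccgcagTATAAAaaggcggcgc
These windows are chr13:23746584-23746733 (plus strand) and chr13:21750554-21750703 (minus strand). The letters describe the windows and no binding was measured.

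Near-identical copies limit what single rows can show. Of all stretches of 50 bases in a member's longest transcript, a median of 1.13% also occurred in another gene for H1, 73.0% for H2A, 45.3% for H2B, 62.0% for H3 and 39.5% for H4. The authors' handling of reads that match several places is not given in the sources used here, so rows with many shared stretches are uncertain one by one. The 16 members under the filter had a median of 89.3% and the 52 tested members 46.4%. Some longest transcripts exceeded the deposited span, such as 1679 against 381 bases for Hist1h2bh. The shares may therefore differ from those of the deposited rows. Those under the filter were Hist1h2aa, Hist1h2ad, Hist1h2ah, Hist1h2ai, Hist1h2ao, Hist1h2ap, Hist1h2ba, Hist1h2bk, Hist1h2bq, Hist1h2br, Hist1h4n, Hist2h2aa1, Hist2h2aa2, Hist2h3b, Hist3h2ba and Hist3h2bb-ps. Per kilobase of the deposited gene span, the highest mean levels over the 12 libraries were 356 CPM for Hist2h2bb, 174 for Hist1h2bb, 159 for Hist1h1c and 147 for Hist1h4c. Every 50-base stretch of Hist2h2bb also occurs in another gene, and 2 other genes share stretches with it.

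Libraries held 31845169 to 109079737 reads in genes, most in replicate 3 of aged KO. Shc1, the targeted gene, had 266, 311 and 309.7 CPM in young WT and 208 to 209 in young KO, then 203 to 219.6 in aged WT and 162 to 178 in aged KO. Reads of all its isoforms are summed, so this checks the labels only in part. The summed luminal epithelial markers (7 genes) were 2530.2 to 2701 CPM in aged WT and 228 to 380.3 in the other groups. The 6 fibroblast markers were 6574 to 11039 CPM. Basal markers (6 genes) were 173 to 182 CPM in aged WT and 49.6 to 76.04 elsewhere. Endothelial markers (4 genes) were 205 to 217 CPM in aged KO and 55.04 to 95.3 elsewhere. Skeletal muscle markers (5 genes) were 823 to 961 CPM in young WT, 160 to 181 in aged WT, 229.5 to 283 in young KO and 779 to 1476 in aged KO. Adipocyte markers (3 genes) were 303 to 312 CPM in aged KO and 128 to 182 elsewhere, leukocyte markers (4 genes) were 33.5 to 53.7 and 71.5 to 114.5, and no gene of these lists was at 0 in all libraries.

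Replicate 1 of young WT stood apart in the histone genes. Its members lay a median of 0.71 log2 below their group means, written as a deviation of -0.71, against 0.32 and 0.40 in replicates 2 and 3 of the group. By class, its deviation was -0.39 for H1, -0.65 for H2A, -0.41 for H2B, -0.89 for H3 and -1.26 for H4. S phase genes deviated there by -0.04, ribosomal protein mRNAs by -0.12 and 8 other RNAs without a poly(A) tail by a median of -0.01. Among those 8, the RNA of RNase P, Rpph1, had 2417 CPM in replicate 1 against 10134 and 8855, and the RNA of RNase MRP, Rmrp, had 2561 against 7054 and 6307. The counts over all members and by class with age in WT, and several interactions, are given also without this library.

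**Figure D1:**
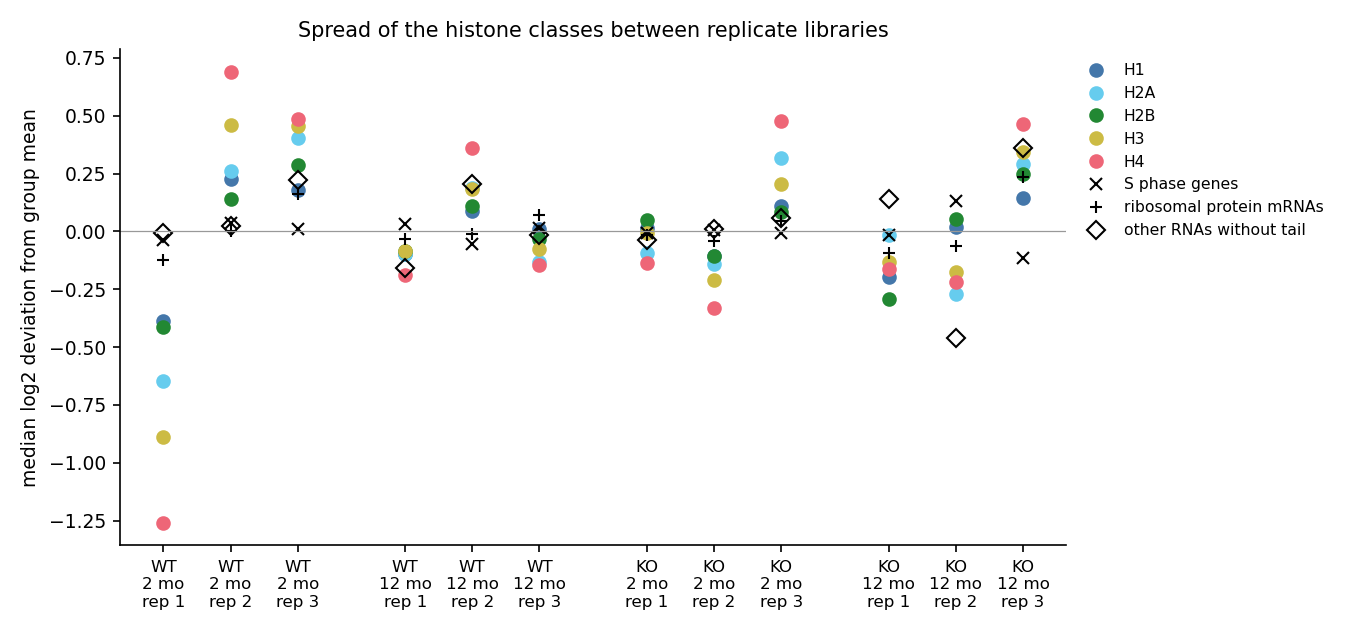
Median log2 deviation of each library from its group mean (y axis) for the tested genes of the 5 histone classes (coloured points) and for S phase genes, ribosomal protein mRNAs and other RNAs without a poly(A) tail (black symbols), by library (x axis). Replicate 1 of young WT is lowest in every histone class, from -0.39 for H1 to -1.26 for H4, while the 3 other lists lie between -0.12 and -0.01 there.

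Summed by class, histone RNA was lower at 12 months in both genotypes and lowest in aged KO. All 68 rows together gave 1253, 2362 and 2311 CPM in young WT, 1141, 1369 and 1229 in aged WT, 1956, 1717 and 2251 in young KO and 671, 765 and 935 in aged KO. The aged KO libraries lay below all 9 others. Between 2 and 12 months the group mean went from 1975 ± 626 to 1247 ± 115 CPM in WT and from 1975 ± 267 to 790.2 ± 134 in KO (SD, n = 3). Without replicate 1 the young WT mean was 2336 CPM. In bulk RNA, fewer dividing cells and less histone RNA per cell cannot be told apart.

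Classes differed in how far they went down. H4 sums averaged 385 ± 209 CPM in young WT, 205 ± 41.4 in aged WT, 312 ± 101 in young KO and 57.6 ± 23.9 in aged KO. Without replicate 1 the young WT mean was 504 CPM for H4, 219 for H3, 721 for H2B, 124 for H2A and 768 for H1. H3 sums were 175 ± 77.1, 80.9 ± 11.4, 172 ± 30.6 and 34.6 ± 9.38 CPM in the same order. H1 sums were 671 ± 168, 546 ± 36.2, 723 ± 63.7 and 439 ± 67.8 CPM. Of these sums, Hist1h1c alone held means of 224, 255, 246 and 270 CPM. Hist1h1c was not called with age in either genotype, so the H1 sums and shares depend largely on this 1 gene. As a share of all histone reads, H1 made up 34.6 ± 2.99% in young WT, 43.9 ± 1.32% in aged WT, 36.8 ± 1.84% in young KO and 55.6 ± 1.34% in aged KO, and H4 made up 18.3 ± 5.85%, 16.3 ± 1.81%, 15.5 ± 2.93% and 7.13 ± 1.80%. These shares sum to a fixed total, so a lower share of 1 class raises the others.

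**Figure D2:**
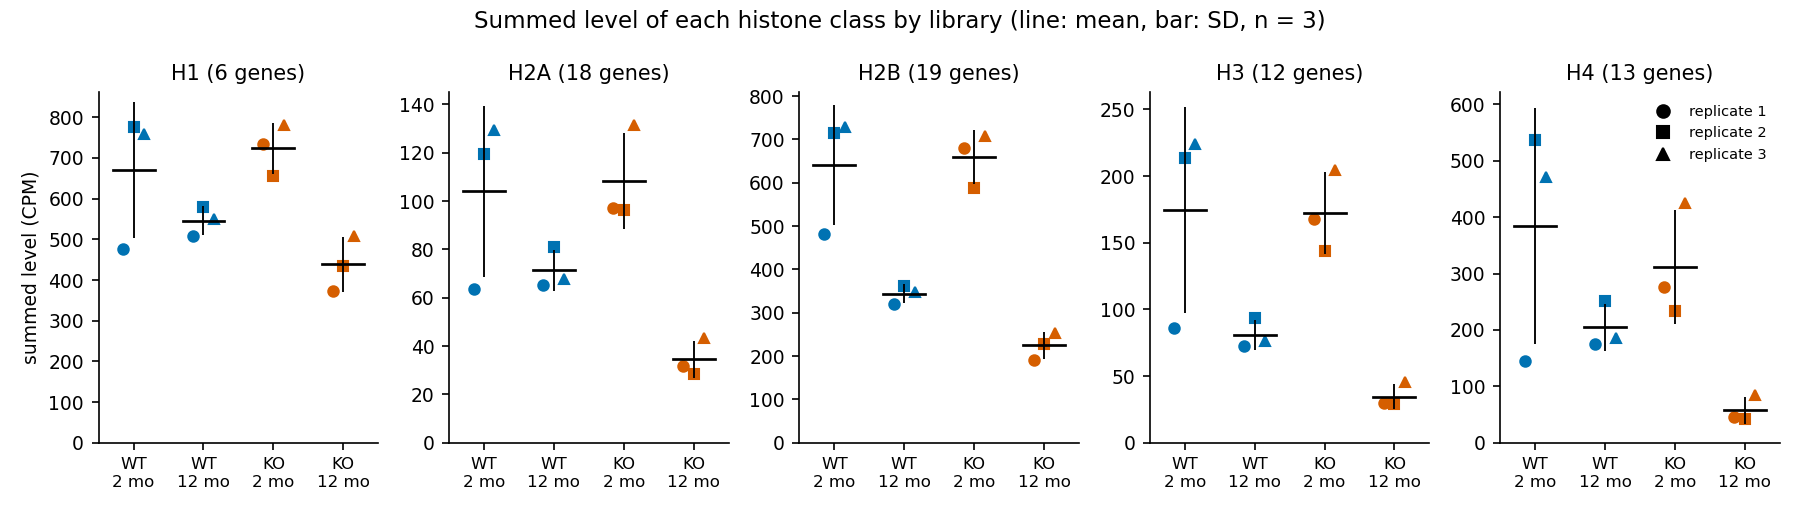
Summed level of each histone class in CPM (y axis, from 0) in the 12 libraries by group (x axis), with replicates as symbols, group means as lines and SD as bars. The aged KO libraries are the lowest for H2A, H2B, H3 and H4, and replicate 1 of young WT lies near the aged WT libraries for H3 and H4.

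With age in WT, 29 of the 52 tested members fell and 1 rose, where 35.6% of all 13961 genes tested fell and 22.3% rose (limma, adjusted p under 0.05). The members' median log2 difference was -0.85, against -0.08 over all genes. Without replicate 1 of young WT, 44 fell and 1 rose, with a median of -1.28 and 36.6% of all genes falling. With all libraries kept, 23 members were lower and 1 higher at 12 months without overlap between the ages, as were 38.0% and 24.2% of all genes. The 16 members that fell only in that fit included 9 H4 genes, and Hist2h3c1 was no longer called.

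With age in KO, 47 of 52 fell and 1 rose, where 34.2% of all genes fell and 32.9% rose. The median was -2.13, against -0.02 over all genes. Libraries of the 2 ages did not overlap for 47 members that were lower and 2 that were higher at 12 months, as for 37.7% and 35.3% of all genes. Leaving out each of the 6 KO libraries in turn gave 45 to 47 members that fell.

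The age by genotype interaction, which is the age difference in KO minus that in WT, was below 0 for 48 of 52 members. It was called for 34 members in that direction and for 2 in the other, where 26.2% and 31.4% of all genes were called. The median interaction was -1.06 over the members and 0.02 over all genes. Without replicate 1 of young WT, 29 members were called below 0 and 3 above, the median was -0.70 and 47 of 52 stayed below 0. The added call above 0 was Hist1h4m (0.93). It had 8 reads in young KO and 0 in aged KO, so its age difference in KO is held near 0 by the floor. The count below 0 was 19 without replicate 2 of aged WT, 21 without replicate 3 of young KO, and 20 and 22 without replicates 1 and 2 of aged KO.

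**Figure D3:**
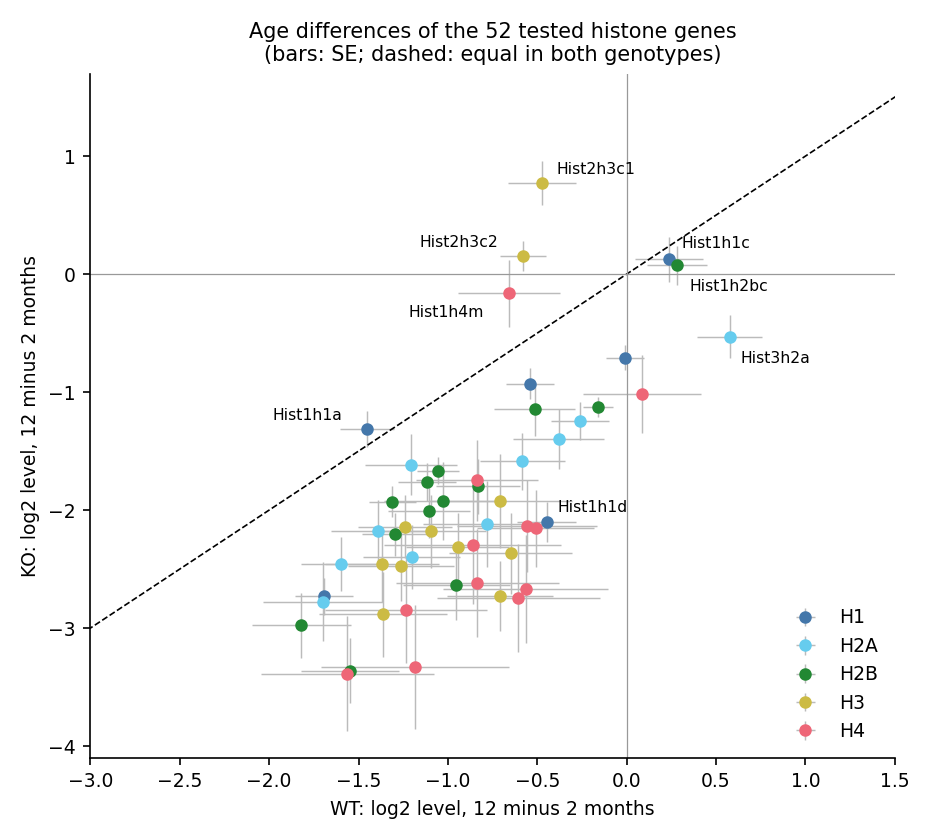
Log2 difference between 12 and 2 months in WT (x axis) and in KO (y axis) for the 52 tested histone genes, coloured by class, with SE bars. Of the 52 points, 48 lie below the dashed line of equal differences, and Hist1h1a, Hist1h4m, Hist2h3c1 and Hist2h3c2 lie above it. Hist1h4m had 8 reads in young KO and 0 in aged KO, so its difference in KO is held near 0 by the floor.

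Between genotypes, few members were called at 2 months and most at 12 months. At 2 months 1 of 52 was lower in KO and 0 were higher, where 14.2% and 1.86% of all genes were lower and higher (limma). At an unadjusted p under 0.05 the counts were also 1 and 0, and edgeR and DESeq2 likewise called 1 lower and 0 higher. The median difference at 2 months was 0.06, and ranged from -0.27 without replicate 1 of young WT, when 5 members were called lower, to 0.26 without replicate 3. Libraries of the genotypes did not overlap at 2 months for 1 member that was lower and 1 that was higher in KO, against 27.5% and 4.61% of all genes. At 12 months 44 were lower in KO and 2 were higher, against 38.9% and 31.3% of all genes, with a median of -0.999. There 45 members were lower and 2 higher in KO without overlap, against 41.0% and 32.9% of all genes. Between the same groups all 7 luminal and 5 of 6 basal markers were lower in KO, and all 4 endothelial and 4 of 5 skeletal muscle markers were higher. Their part in the histone difference was not tested.

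Linker histones were divided. With age 4 of 6 fell in WT and 5 of 6 in KO, with medians of -0.49 and -1.12, and 4 fell in WT without replicate 1 of young WT too, with a median of -0.60. Hist1h1c, which cells also make as polyadenylated RNA outside S phase, had 145, 266 and 261 CPM in young WT, 236, 272 and 256 in aged WT, 246, 226 and 266 in young KO and 226, 261 and 324 in aged KO. All 4 groups overlapped, and its age differences of 0.24 ± 0.19 in WT (SE, adjusted p = 0.308, limma) and 0.12 ± 0.19 in KO (adjusted p = 0.579) were not called.

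Hist1h1d had 122, 202 and 207 CPM in young WT, 116, 138 and 126 in aged WT, 199.7, 177 and 216 in young KO and 39.6, 46.1 and 51.6 in aged KO. Its aged KO libraries lay below the 9 others. It had an age difference of -0.45 in WT (adjusted p = 0.0341, limma) against -2.10 in KO (adjusted p = 1.37e-07), and the interaction was -1.65 ± 0.24 (adjusted p = 5.02e-05), or -1.40 without replicate 1 of young WT. Hist1h1e had 90.9 to 128 CPM in young WT, 105 to 118 in aged WT, 111 to 126 in young KO and 65.7 to 76.5 in aged KO. It fell in KO by 0.71 (adjusted p = 6.81e-05) and was not called in WT (-0.01, adjusted p = 0.949). Hist1h1a, chosen after its values were seen, fell in WT (-1.45) and KO (-1.31), and its interaction of 0.14 ± 0.21 was not called (adjusted p = 0.596). Hist1h1t, known from testis, averaged 0.673 CPM over the 12 libraries and fell in WT (-0.54) and KO (-0.93).

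H2A genes fell in 5 of 10 tested cases in WT, where 1 rose, and in 10 of 10 in KO, with medians of -0.99 and -1.87. Without replicate 1 of young WT, 9 of 10 fell in WT, with a median of -1.38, and the interaction was called below 0 for 4 of 10 in place of 7. Hist1h2ab had 21.2, 36.1 and 42.5 CPM in young WT, 9.97, 11.6 and 9.22 in aged WT, 31.1, 32.02 and 43.4 in young KO and 6.17, 4.63 and 7.47 in aged KO. Both ages were fully apart in each genotype. It had an age difference of -1.60 in WT (adjusted p = 3.92e-05, limma) against -2.46 in KO (adjusted p = 5.73e-07), and the interaction of -0.86 ± 0.32 (adjusted p = 0.034) was not called without replicate 1 of young WT. Hist1h2ac had 7.33 to 15.4 CPM in young WT, 6.97 to 8.59 in aged WT, 11.6 to 16.8 in young KO and 3.33 to 5.18 in aged KO. It fell in KO by 1.59 (adjusted p = 5.86e-05), while the difference of -0.58 in WT had an adjusted p of 0.0511 and was called without replicate 1.

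Hist3h2a, on chromosome 11, was the 1 member that rose with age in WT. It had 19.6, 33.7 and 31.6 CPM in young WT, 37.8, 46.1 and 40.8 in aged WT, 26.6, 25.7 and 31.6 in young KO and 16.6, 17.4 and 24.02 in aged KO. The aged WT libraries were above the 9 others, while replicate 1 of young WT was within the aged KO range. It rose by 0.58 ± 0.18 in WT (adjusted p = 0.0151, limma) and fell by 0.53 in KO (adjusted p = 0.0196), and the interaction was -1.11 ± 0.26 (adjusted p = 0.00241). Without replicate 1 of young WT the rise was 0.34, and it was not called without replicate 2 of aged WT.

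H2B genes fell in 10 of 13 cases in WT and 12 of 13 in KO, with medians of -1.06 and -1.92. In WT 10 fell also without replicate 1 of young WT, with a median of -1.28. Hist2h2bb had 198, 289 and 259 CPM in young WT, 113, 116 and 125 in aged WT, 262, 241 and 265 in young KO and 73.6, 90.1 and 77.4 in aged KO. Young libraries of both genotypes were the highest, aged WT came next and aged KO was lowest, without overlap. It had an age difference of -1.06 in WT (adjusted p = 3.25e-06, limma) against -1.67 in KO (adjusted p = 3.54e-08), with an interaction of -0.61 ± 0.16 (adjusted p = 0.00577).

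Hist1h2bb showed the same order, with 94.7 to 132 CPM in young WT, 41.6 to 52.3 in aged WT, 118 to 134 in young KO and 28.2 to 37.9 in aged KO. Its interaction was -0.62 ± 0.19 (adjusted p = 0.012, limma). Hist1h2bf had the largest fall with age in WT when all libraries were kept (without replicate 1 of young WT it was -2.20, and Hist1h4k had -2.32), from 4.56, 10.4 and 10.8 CPM to 2.24, 2.50 and 1.23, a log2 difference of -1.82 ± 0.28 (adjusted p = 7.88e-05). In KO it went from 8.57, 7.64 and 8.59 to 0.408, 0.661 and 0.803 CPM. Hist1h2bc, which also gives polyadenylated RNA, stood apart from its class with 46.9 to 74.2 CPM in young WT, 71.1 to 85.9 in aged WT, 50.9 to 65.3 in young KO and 55.2 to 76.2 in aged KO. Neither age difference of Hist1h2bc was called (0.28 in WT, adjusted p = 0.169, and 0.07 in KO, adjusted p = 0.714).

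H3 genes fell in 8 of 11 cases in WT and 9 of 11 in KO, where 1 rose, with medians of -0.95 and -2.31. In WT 10 fell without replicate 1 of young WT, with a median of -1.38. With a filter at a mean of 2 CPM, 5 fell. That filter left out Hist1h3b, Hist1h3d and Hist2h3c2, which all fell in WT in the main fit. Hist1h3i had 12.0, 36.0 and 34.1 CPM in young WT, 7.91, 11.1 and 8.99 in aged WT, 27.6, 21.1 and 29.9 in young KO and 1.96, 2.91 and 4.96 in aged KO. The ages did not overlap in either genotype, and aged KO was lowest. It had an age difference of -1.36 in WT (adjusted p = 0.00525, limma) against -2.89 in KO (adjusted p = 1.05e-05), with an interaction of -1.52 ± 0.51 (adjusted p = 0.0205), or -1.02 without replicate 1 of young WT. Hist1h3c had an interaction of -1.21 ± 0.42 (adjusted p = 0.0245), or -0.79 without that library, with 14.0 to 42.3 CPM in young WT, 8.99 to 12.8 in aged WT, 24.9 to 32.2 in young KO and 4.13 to 6.32 in aged KO. Hist1h3f had 21.4, 59.2 and 61.9 CPM in young WT and 23.3 to 30.9 in aged WT, a difference of -0.65 (adjusted p = 0.124) that was called without replicate 1. In KO it fell by 2.37, from 38.9 to 60.0 CPM down to 6.68 to 13.1 (adjusted p = 4.3e-05), and the interaction was -1.72 ± 0.49 (adjusted p = 0.00838).

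A pair of H3 genes on chromosome 3 was higher in KO than in WT at 12 months. Hist2h3c1 had 4.71, 2.93 and 3.43 CPM in young WT, 2.72, 3.13 and 1.75 in aged WT, 3.95, 2.89 and 2.85 in young KO and 6.25, 5.27 and 5.98 in aged KO. Its aged KO libraries were above the 9 others. It rose in KO by 0.77 ± 0.19 (adjusted p = 0.00272, limma), was higher in KO than in WT at 12 months by 1.09 (adjusted p = 0.00018) and had an interaction of 1.25 ± 0.27 (adjusted p = 0.00137), or 1.08 without replicate 1 of young WT. In WT it fell by 0.47 (adjusted p = 0.0455), a call lost without that library. Hist2h3c2 was higher in KO at 12 months by 0.55 (adjusted p = 0.00172), with 1.96 to 2.13 CPM against 1.12 to 1.38 in WT, and its interaction was 0.73 ± 0.18 (adjusted p = 0.00345). With age Hist2h3c2 fell by 0.58 in WT and was not called in KO (0.15, adjusted p = 0.301). These were the 2 members called higher in KO at 12 months. Every 50-base stretch of Hist2h3c1 occurs in other genes too, so its reads cannot be assigned with certainty, and its stem-loop has the same letters as that of Hist1h1d.

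H4 genes showed the lowest class median in KO at the pseudocount of 0.5, while at a pseudocount of 1 it was -2.09 against -2.16 for H3. With age 2 of 12 fell in WT, and 11 of 12 without replicate 1, while 11 of 12 fell in KO, with medians of -0.75, -1.28 and -2.46. The count in WT was 0 without replicate 2 and without replicate 3 of young WT (limma, 1 at an unadjusted p under 0.05 in each), 4 with edgeR and 5 with quantile scaling. The median interaction was -1.63, and -1.05 without replicate 1 of young WT, with 8 of 12 called below 0 in both fits. That count was 4 with no filter, 5 with a pseudocount of 1, and 3 without any of replicate 2 of aged WT, replicate 3 of young KO, or replicates 1 and 2 of aged KO, left out singly. Hist1h4c had 28.2, 91.5 and 84.3 CPM in young WT, 34.5, 45.6 and 43.1 in aged WT, 60.0, 41.2 and 82.1 in young KO and 9.48, 11.3 and 20.4 in aged KO. Replicate 1 of young WT was below the aged WT libraries, and aged KO was below all others. Its difference in WT was -0.56 ± 0.39 (adjusted p = 0.244, limma), and -1.10 without that replicate (adjusted p = 0.0043), while it fell by 2.14 in KO (adjusted p = 0.000324).

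Hist1h4h had 26.0, 102 and 87.5 CPM in young WT, 34.8, 54.2 and 37.8 in aged WT, 43.5, 42.8 and 83.0 in young KO and 6.63, 5.36 and 14.3 in aged KO. Its interaction was -2.10 ± 0.65 (adjusted p = 0.014, limma), and -1.49 without replicate 1 of young WT (adjusted p = 0.0137). Hist1h4d had 16.5, 64.8 and 64.2 CPM in young WT, 22.8 to 33.7 in aged WT, 34.6 to 55.8 in young KO and 3.93 to 11.1 in aged KO. Of the 50-base stretches in its longest transcript (1138 bases), 10.2% are shared, while its deposited span is 312 bases. The interaction of Hist1h4d was -2.14 ± 0.65 (adjusted p = 0.0124, limma), or -1.49 without replicate 1 of young WT. Hist1h4a, whose interaction of -2.14 ± 0.74 (adjusted p = 0.0248) was the largest below 0 with all libraries kept, was at -1.35 without replicate 1 of young WT, when Hist1h2bn had -1.58. It had 4.88, 29.1 and 25.8 CPM in young WT, 5.35 to 8.73 in aged WT, 10.2 to 21.4 in young KO and 0.637 to 1.95 in aged KO. Hist1h4k fell in KO by 3.39 ± 0.49 (adjusted p = 3.89e-05), from 5.62, 5.03 and 12.0 CPM to 0.204, 0.189 and 0.261.

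**Figure D4:**
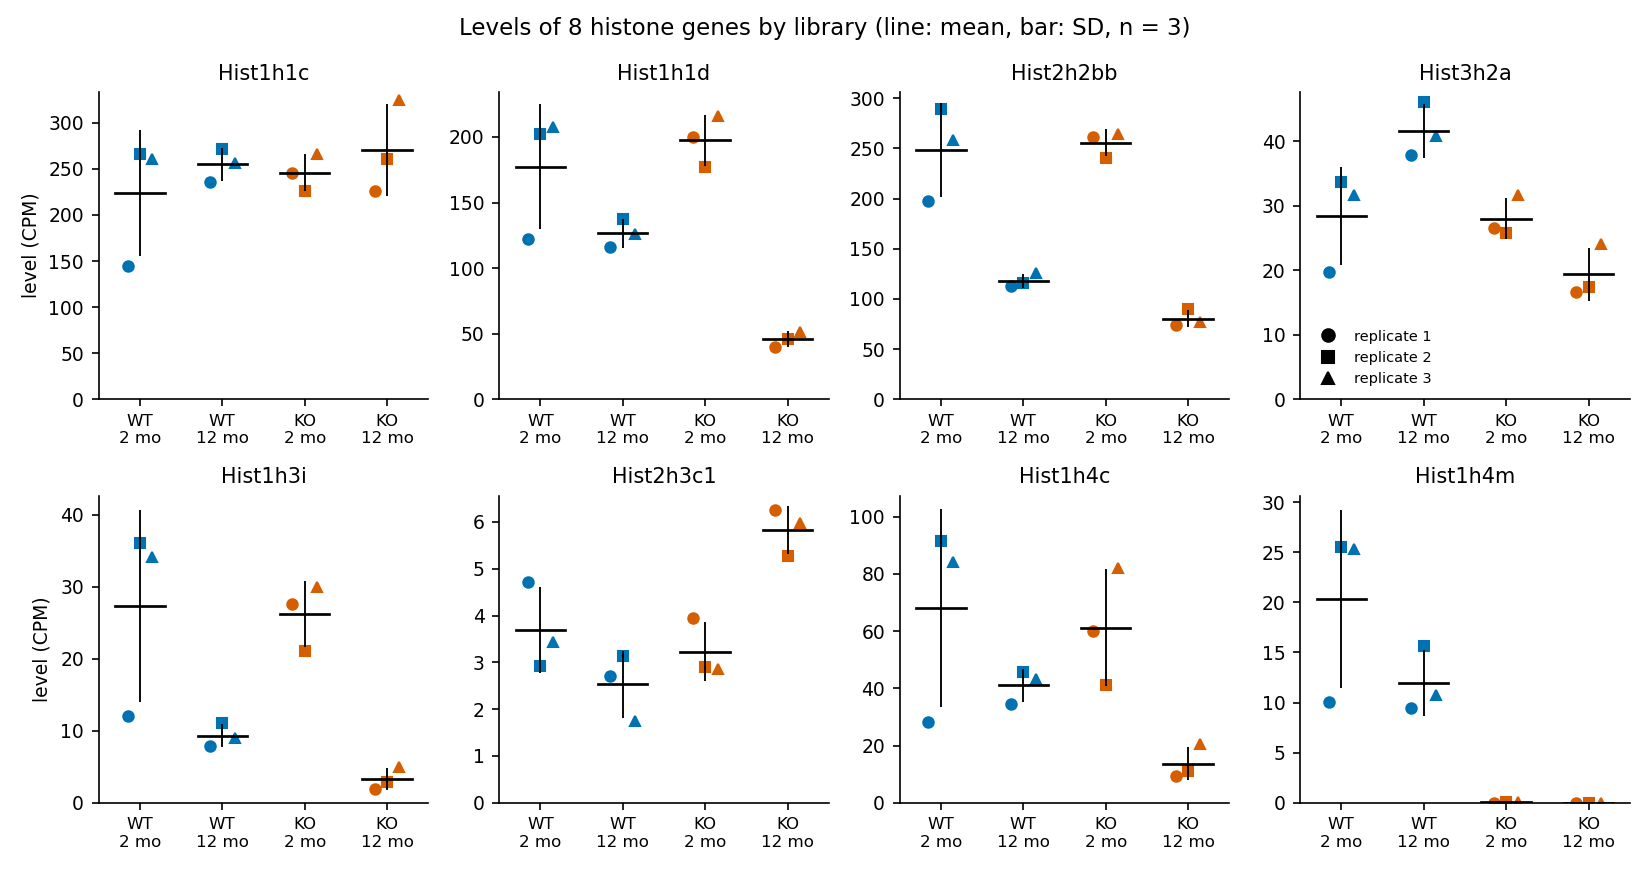
Levels in CPM (y axes, from 0) of 8 histone genes in the 12 libraries by group (x axes), with replicates as symbols, group means as lines and SD as bars. Hist1h1c overlaps in all groups, Hist2h3c1 is highest in aged KO, Hist1h1d, Hist2h2bb, Hist1h3i and Hist1h4c are lowest there without overlap, and Hist1h4m is at 0.108 CPM or less in all 6 KO libraries.

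Hist1h4m was called lower in KO at both ages. Hist1h4b and Hist1h4f were so too without replicate 1 of young WT, with differences of -0.81 and -0.81 at 2 months. Hist1h4m lies at chr13:21811746-21812147 on the plus strand and had 10.03, 25.5 and 25.3 CPM in young WT, 9.45, 15.6 and 10.7 in aged WT, 0, 0.108 and 0.077 in young KO and 0 in all 3 libraries of aged KO. All WT libraries were above all KO libraries. The 3 libraries of young KO held 8 of its reads in all, 0 to 5 each, against 2858 in young WT. The fitted difference was -5.10 ± 0.28 at 2 months (adjusted p = 1.59e-07, limma), a value that depends on the pseudocount. In aged KO there were 0 reads against 1620 in WT, so WT was at least 736-fold higher when 3 reads over the group are taken as the floor.

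The same step was rare in the table. Counting genes with at least 1 CPM in every WT library and less than 0.2 times the lowest WT library in every KO library gave 5 genes, namely Hist1h4m and Cd5l, Crct1, Lce3a and Rps3a1, which all lie on chromosome 3 as Shc1 does. The opposite step was found for 1 gene, Cd1d2, also on chromosome 3. That rule was chosen after seeing the data. Rows Hist1h2ao, Hist1h2ap, Hist1h2bq, Hist1h2br and Hist1h4n overlap the position of Hist1h4m in the deposited coordinates and were at 0 in all 12 libraries. Nearby members within 120 kb did not show the step at 2 months, such as Hist1h3i (0.08), Hist1h4k (0.02) and Hist1h2bn (0.43). Of the 50-base stretches of Hist1h4m, 89.8% also occur in at least 1 other gene. Taken over all its stretches, 11 other genes share at least 1 of them.

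Features that the name rule did not use split the members only in part. With age in KO, the median was -2.14 for the 38 tested members with a stem-loop match in an annotated transcript and -1.79 for the 14 without. The 14 included short annotated transcripts, such as Hist1h4k (312 bases), past whose ends the search did not go. The median was -1.80 for the 13 members with under 20% of shared stretches, of which 12 fell, and -2.18 for the 39 others, of which 35 fell. The 13 included members whose longest transcript, used for these shares, exceeds the deposited span, such as Hist1h4c (820 against 312 bases). By position, the medians were -2.18 for the first chromosome 13 group, -2.19 for the second and -1.24 for the Hist2 group. Members with a deposited span of 1000 bases or more (13 genes) had a median of -1.12 and those under 1000 (39 genes) -2.21.

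The 6 members reported to give polyadenylated RNA in cells that stop dividing (Hist1h1c, Hist1h2ac, Hist1h2bc, Hist2h2be, Hist3h2a and Hist4h4) had medians of 0.04 in WT and -0.83 in KO. Hist3h2a rose in WT and the other 5 were not called there, while 4 of the 6 fell in KO. Hist1h2ac (-0.92) and Hist4h4 (-0.97) fell in WT too without replicate 1 of young WT, and the median in WT was -0.09. Hist4h4, the lone member on chromosome 6, had 17.1, 46.7 and 43.5 CPM in young WT, 19.7 to 27.8 in aged WT, 26.0 to 46.2 in young KO and 5.86 to 9.72 in aged KO. Of the members known from testis, Hist1h2aa and Hist1h2ba were under the filter.

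Genes that accompany DNA synthesis were set beside the histone genes. All 30 genes of an S phase list fell with age in both genotypes, against 35.6% of all genes in WT and 34.2% in KO. Their medians were -1.19 in WT and -1.04 in KO. In the interaction 10 of them were called above 0 and 2 below, with a median of 0.18. Over all genes 31.4% were called above 0 and 26.2% below. The 52 histone members had 2 above and 34 below. Mcm10, a replication initiation factor, fell by 1.56 in WT (adjusted p = 1.23e-09, limma), and Tk1, a thymidine kinase, fell by 1.64 in KO (adjusted p = 5.06e-09). Rrm2, a subunit of ribonucleotide reductase, had an interaction of 0.68 (adjusted p = 0.000249). The proliferation marker Mki67 went from 364 to 448 CPM in young WT to 133 to 142 in aged WT, and from 346 to 412 in young KO to 131 to 191 in aged KO, with an interaction of 0.36 (adjusted p = 0.0919).

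**Figure D5:**
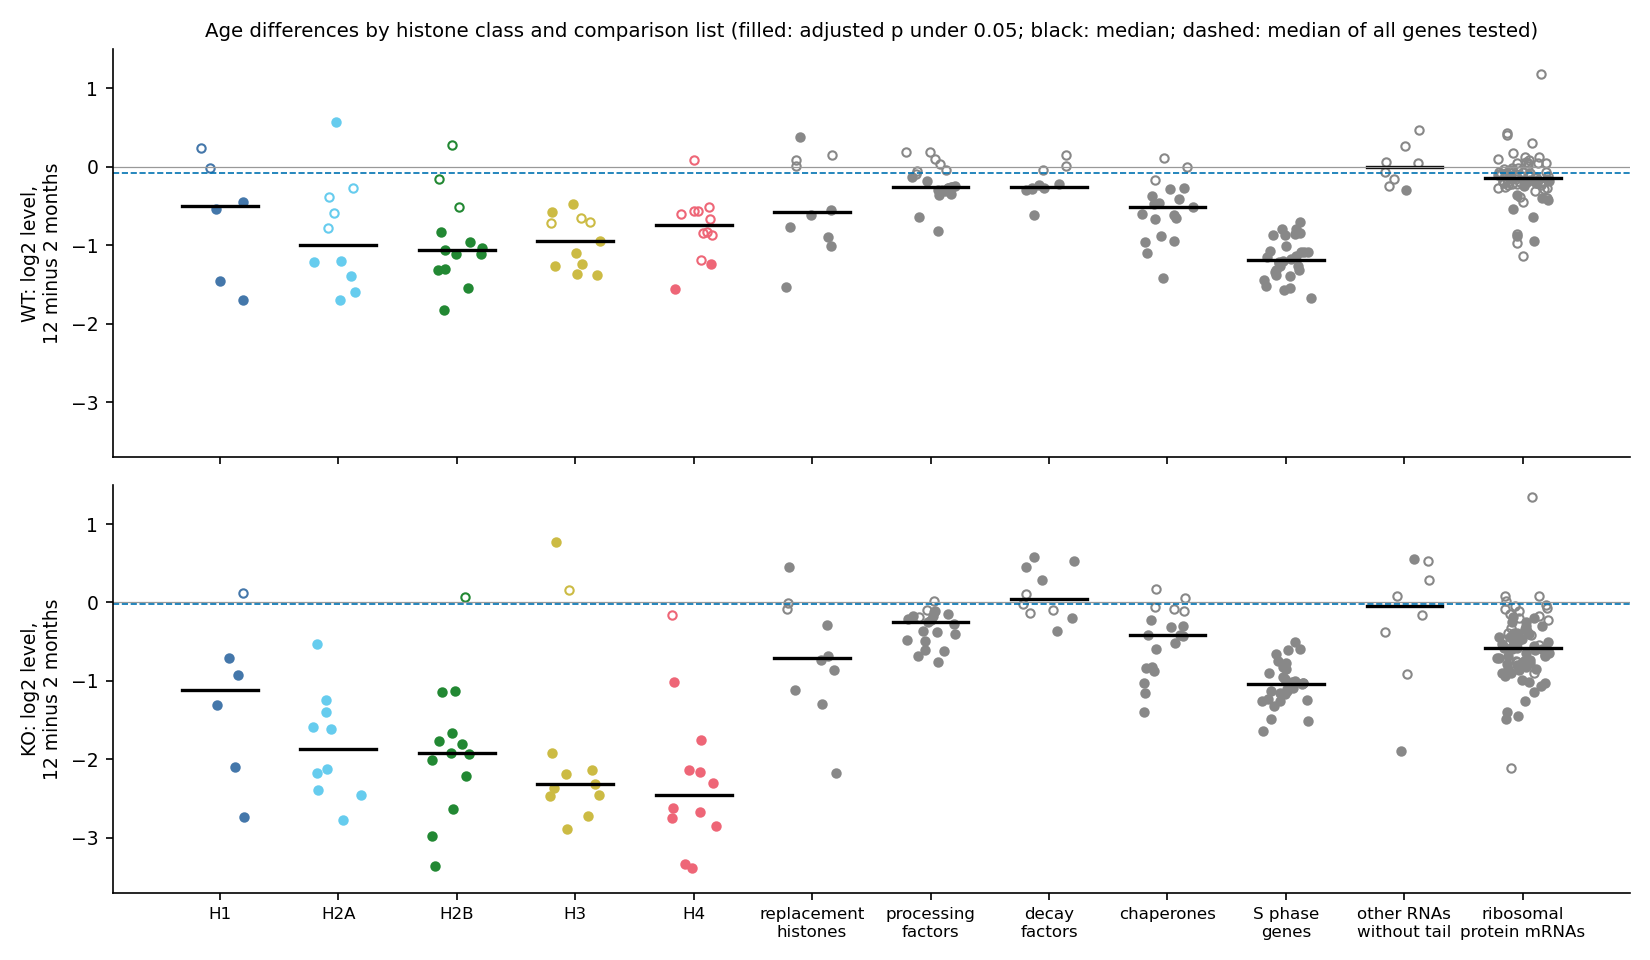
Log2 difference between 12 and 2 months in WT (upper y axis) and KO (lower y axis) for each tested gene of the 5 histone classes and 7 comparison lists (x axis), with filled points for adjusted p under 0.05, black lines for list medians and a dashed line for the median of all genes. The H4 median is -0.75 in WT and -2.46 in KO, and the S phase median is -1.19 and -1.04.

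Of 10 replacement histones tested, 6 fell and 1 rose in WT and 7 fell and 1 rose in KO, with medians of -0.58 and -0.71. Over all genes 35.6% fell and 22.3% rose in WT, and 34.2% fell and 32.9% rose in KO. H3f3b, which encodes the replacement histone H3.3, rose by 0.38 in WT (adjusted p = 0.000152, limma) and by 0.46 in KO (adjusted p = 2.56e-05). Cenpa, the centromeric H3 form, had an age difference of -1.53 in WT (adjusted p = 6.21e-10) against -2.17 in KO (adjusted p = 3.95e-11). H2afv, which encodes an H2A.Z protein, had an interaction of -0.74 (adjusted p = 2.18e-05).

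Most factors that make histone RNA fell with age in both genotypes. Of 21 genes for histone transcription and 3′ end processing, 14 fell in WT and 16 in KO, with medians of -0.25 in both. The other 7 and 5 were not called, and 35.6% and 34.2% of all genes fell. In the interaction 5 (23.8%) were called below 0 and 1 above, against 26.2% and 31.4% of all genes. Slbp, the stem-loop binding protein, went from 54.2 to 57.6 CPM in young WT to 30.5 to 33.5 in aged WT and from 47.9 to 50.8 in young KO to 28.3 to 29.3 in aged KO. It had an age difference of -0.81 in WT (adjusted p = 3.01e-08, limma) against -0.76 in KO (adjusted p = 5.75e-08), and its interaction of 0.05 was not called (adjusted p = 0.605). Npat, the coactivator of histone transcription, had an age difference of -0.29 in WT (adjusted p = 0.0043) against -0.27 in KO (adjusted p = 0.0059), and Casp8ap2, its partner in histone gene bodies, by 0.64 and 0.62. Of the proteins of the U7 particle that cuts histone RNA, Lsm11 fell by 0.29 and 0.18, and Lsm10 was not called in WT (-0.09) and fell by 0.21 in KO (adjusted p = 0.0318). Srrt, which binds capped RNA, had an interaction of -0.63 (adjusted p = 6.41e-05).

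Of 10 genes for histone RNA decay, 7 fell with age in WT, and 2 fell and 4 rose in KO. Over all genes 35.6% fell in WT, and 34.2% fell and 32.9% rose in KO. At 12 months 9 of the 10 were higher and 1 lower in KO than in WT, against 31.3% and 38.9% of all genes. Xrn1, which degrades RNA from its 5′ end, had an interaction of 0.76 (adjusted p = 8.47e-06, limma), and Smg1, the kinase of Upf1, had 0.62 (adjusted p = 5.74e-05). Upf1, an RNA helicase needed for this decay, was lower in KO than in WT at both ages. Its difference was -0.41 at 2 months (adjusted p = 0.0267, limma) and -0.93 at 12 months (adjusted p = 7.96e-06). Eri1, the nuclease that trims the hairpin, had an age difference of -0.62 in WT (adjusted p = 8.02e-06) against -0.20 in KO (adjusted p = 0.0266). Of 19 chaperones and import genes, 16 fell in WT and 14 in KO, against 35.6% and 34.2% of all genes. Asf1b, a chaperone of newly made H3 and H4, fell by 1.41 and 1.40, and Nasp, which stores H3 and H4 and also binds H1, by 0.60 and 1.02.

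Other short or untailed RNAs were measured in the same libraries. Ribosomal protein mRNAs, which are short and polyadenylated, fell in 12 of 82 cases in WT and 54 of 82 in KO, with medians of -0.15 and -0.58. Among all genes tested 35.6% fell in WT, and 34.2% fell and 32.9% rose in KO. In the interaction 25 (30.5%) were called below 0 and 2 above, against 26.2% and 31.4% of all genes. Other genes with a longest transcript of up to 600 bases (104 genes) had a median age difference in KO of -0.13, those of over 600 and up to 1000 bases of -0.37, and those over 5000 bases of 0.22. Of 8 other RNAs without a poly(A) tail, 1 fell in WT, and 1 fell and 1 rose in KO, with medians of -0.004 and -0.04. Rpph1, introduced above, had 4629, 7213 and 5709 CPM in aged WT, 5066, 3622 and 7462 in young KO and 978, 1036 and 2655 in aged KO. Its aged KO libraries lay below all others but replicate 1 of young WT, which was within their range, with a difference of -1.89 in KO (adjusted p = 0.00412, limma) and an interaction of -1.83 (adjusted p = 0.038).

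The part of these other RNAs in the histone difference was not tested. With the trend of log2 difference on transcript length removed, an alternative chosen after seeing the data, 47 members fell and 2 rose with age in KO with a median of -1.86, and 32 were called below 0 in the interaction with a median of -0.89. At 12 months 38 members were then lower in KO and 3 were higher.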

How the data were processed

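The deposited table holds CPM signal values per gene that the authors scaled with TMM in edgeR, per the file headers. Per the submitters' processing notes, reads were handled with TopHat2 2.1.0, Bowtie2 2.2.4, SAMtools 0.1.18 and HTSeq 0.6.1p1 on mm10. Per the labels' protocols, RNA was extracted with a PicoPure kit and made into libraries with a TruSeq stranded total RNA kit. For the annotation, the strand setting and reads with several matches, the method is not given in the sources used here.

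Differences were tested with limma 3.58.1 (R 4.3.3, trend option) on log2(CPM + 0.5) over 13961 genes whose average reached 0.5 CPM, in 1 model of the 4 groups with 8 residual degrees of freedom. P-values were adjusted by Benjamini-Hochberg over all genes and called under 0.05. Fold changes are on this scale, which understates those of low genes. Low values were whole multiples of 1 read, and 100% of values came out whole within 0.1. On these recovered reads edgeR 4.0.16 called 3898 genes higher and 3766 lower with age in WT and 4640 and 4693 in KO. DESeq2 1.42.0, other scalings, filters and pseudocounts, a replicate block and leaving out each library were tried, and removal of the trend with transcript length was added after seeing the data. The fits were tested on simulated data.

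Members and gene lists were chosen with earlier results of these data known. Histone genes given in full were the 3 with the highest mean in each class and, in each comparison, the called member with the largest rise and fall. Shc1, Mki67, Slbp, Npat, Lsm10 and Lsm11 were given whatever their result, and of each other list up to 3 called genes per direction with the smallest p.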

Additional observations from a re-analysis of the deposited data

Results flagged for a closer look

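Of the 20 histone genes given in full, 17 differed between genotypes in their age effect by the interaction test (limma, adjusted p under 0.05), 16 with a lower value in KO and 1 with a higher. Some of the 20 were chosen by these same tests, so their count does not stand for the members. Of all 52 tested members, 34 were called lower and 2 higher, against 26.2% and 31.4% of all genes. The age difference in KO minus that in WT was -2.14 for Hist1h4a, -2.14 for Hist1h4d, -2.10 for Hist1h4h, -1.82 for Hist1h4k and -1.58 for Hist1h4c among H4 genes. Among H3 genes it was -1.72 for Hist1h3f, -1.52 for Hist1h3i, -1.21 for Hist1h3c and 1.25 for Hist2h3c1. It was -1.16 for Hist1h2bf, -0.62 for Hist1h2bb and -0.61 for Hist2h2bb among H2B genes, and -1.11 for Hist3h2a, -1.01 for Hist1h2ac and -0.86 for Hist1h2ab among H2A genes. The linker histones Hist1h1d and Hist1h1e had -1.65 and -0.70. Hist1h1c, Hist1h2bc and Hist1h4m were not called. Groups of 3 libraries are too small for the test of single outlying samples.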

How the results depend on the processing

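Under the alternatives, the members' median kept its sign with age in WT, with age in KO, between genotypes at 12 months and in the interaction. With the length trend removed, 2 members rose in WT and 2 in KO, the 12-month genotype median was -0.73, and Lsm10 turned to 0.0298 in KO and to 0.0954 between genotypes at 12 months. The median with age in KO was -2.43 with a pseudocount of 0.1 and -2.44 with DESeq2, which turned the interaction of Hist1h4m to -3.56. With a filter at a mean of 2 CPM, 1 member was called higher between genotypes at 12 months and 1 in the interaction. That filter left out Hist2h3c2 (mean of 1.80 CPM), which the main fit called higher in both. Leaving out 1 library at a time gave 0 to 1 members higher and 22 to 44 lower with age in WT, 45 to 47 lower with age in KO, 1 to 5 lower between genotypes at 2 months, 34 to 46 lower at 12 months, and 2 to 3 higher and 19 to 41 lower in the interaction. Same-numbered deviations correlated at -0.16 to 0.34, which does not settle whether replicate numbers pair the libraries. With the replicate block, 37 members fell in WT, 47 in KO, 44 were lower in KO at 12 months and 40 were below 0 in the interaction. Quantile scaling moved the all-gene median between genotypes at 2 months by 0.11. Rises made up 38.6% of all-gene calls with age in WT and 50.9% with edgeR, and 11.5% between genotypes at 2 months, against 29.2% with TMM over 12 libraries, 39.6% with quantile scaling and 33.5% with edgeR. The 2-group fit could not be run for the interaction. The cause of these changes was not tested.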
